A study of Mus musculus with 57 samples.

Results

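At postnatal day 4 (PN4), expression in the BNST/POA was set against that in the striatum of the same 3 groups of mice. The BNST/POA is a block of tissue that holds the bed nucleus of the stria terminalis and the preoptic area, regions of the ventral forebrain that control reproductive and social behaviour, and the striatum is the input nucleus of the basal ganglia. The comparison uses 30 of the 57 arrays of the series, which are all of those from PN4, 15 from the BNST/POA and 15 from the striatum. The arrays were chosen by the age and region in their labels, without use of any measured value. All mice were C57BL/6J. XX+T females were given testosterone propionate on the day of birth, XY males were given oil that day, and XX females were given oil that day. Each group has 5 arrays in each region, and each array holds RNA pooled from 3 animals. A litter received either testosterone or vehicle, so litter and treatment cannot be told apart. The sources do not say whether BNST/POA and striatal pools of equal number share their mice. The p-values below measure the spread between these pools. The region difference is the mean of the 3 BNST/POA group means minus the mean of the 3 striatal group means, on the log2 scale of quantile-normalized probe intensities, so a positive difference means a higher level in the BNST/POA. A probe was called where limma's Benjamini-Hochberg adjusted p over 13731 probes was under 0.05.

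Both samples were cut from 1 coronal slab, which limits what each of them stands for. The BNST/POA sample took all tissue ventral to the lateral ventricle as far out as the medial edge of the internal capsule, so it is wider than the nuclei in its name. The striatal sample was bounded by the external capsule on the outside and by the anterior commissure. The BNST and the hypothalamus that borders it hold many small groups of neurons, each marked by its own neuropeptide and set up in the embryo by homeodomain and zinc finger transcription factors. In the striatum, by contrast, nearly all neurons are GABAergic projection neurons of a pair of classes, one carrying the dopamine receptor DRD1 and the other DRD2. Retinoic acid made in and around the embryonic striatum helps these cells to differentiate, and they carry receptors for it.

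The arrays of PN4 detected 12754 to 13845 probes in the BNST/POA and 12926 to 13643 in the striatum at a detection p under 0.05. No 2 of the 30 arrays held identical values (0 pairs). The first principal component held 64.8% of the variance and separated the regions without exception (0 arrays on the wrong side). The second component held 16.4%, and 11 arrays lay low on it, 6 from the BNST/POA and 5 from the striatum. The labelled sex was checked with sex-linked transcripts. Eif2s3y, a Y-linked initiation factor gene, read 8.85 to 9.95 on the XY arrays and 6.78 to 6.96 on the XX and XX+T arrays, and the brighter of the probes for Xist, the RNA of X inactivation, read 6.93 to 7.19 in XY and 7.66 to 9.14 in XX and XX+T. The Y-linked gene Uty overlapped, at 7.48 to 7.79 in XY and 7.36 to 7.79 in XX and XX+T.

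Most of the measured transcripts differed between the BNST/POA and the striatum at PN4. Of 13731 probes, 4217 were higher in the BNST/POA (30.7%) and 4327 were higher in the striatum (31.5%). With 15 pools on each side small differences pass the test, so differences of at least 2-fold are counted separately. These were 287 probes higher in the BNST/POA (2.09%) and 280 probes higher in the striatum (2.04%), and 564 of the 567 were also called in the same direction within XX+T, within XY and within XX. Counted as genes, with the brightest probe for each gene, 3032 of 9560 genes were higher in the BNST/POA (31.7%) and 3045 were higher in the striatum (31.9%), with a median difference of 0.002 over all genes. The 15 BNST/POA and 15 striatal values did not overlap for 1276 genes (13.3%). In tissue, fewer cells of a type and less RNA per cell cannot be told apart.

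The 12 largest differences towards the BNST/POA included 5 neuropeptide genes, a glutamate transporter and transcription factors. They also included Calb2 (3.92), Nrn1 (3.42) and AW551984 (3.36). Avp encodes vasopressin, a peptide of hypothalamic and BNST neurons that acts on water balance and social behaviour. Its level in the BNST/POA had a lowest, median and highest value of 10.80, 11.91 and 12.29 (log2 intensity), against 6.95, 7.10 and 7.26 in the striatum, where it was detected on 0 of 15 arrays. Every BNST/POA pool was far above every striatal pool, and since the striatal level is only a bound, Avp was at least 22.2-fold higher in the BNST/POA (fitted log2 difference 4.67, SE 0.11, limma adjusted p = 3.62e-24). A bound of this kind sets the mean of the brighter region against the lowest signal that counts as detected on the arrays of the dimmer region. Pmch, the precursor of melanin-concentrating hormone made in the lateral hypothalamus, read 9.99, 11.93 and 13.07 in the BNST/POA, against 6.92, 6.98 and 7.16 in the striatum, also with 0 of 15 striatal arrays detecting it. It was at least 20.2-fold higher in the BNST/POA (log2 difference 4.61, SE 0.25, adjusted p = 2.04e-15). Oxt, which encodes oxytocin, read 9.88, 10.49 and 11.05 in the BNST/POA, against 7.08 as the median of the striatum, where 1 of 15 arrays detected it (log2 difference 3.40, SE 0.09, adjusted p = 1.86e-22). Galanin (Gal), detected on 14 of 15 striatal arrays, had a log2 difference of 3.86 (SE 0.08), and thyrotropin-releasing hormone (Trh), detected on all of them, a log2 difference of 3.09 (SE 0.06). The plot of the leading genes gives all 30 arrays for the 12 largest differences in each direction, which were chosen among genes without overlap between the regions.

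**Figure D1:**
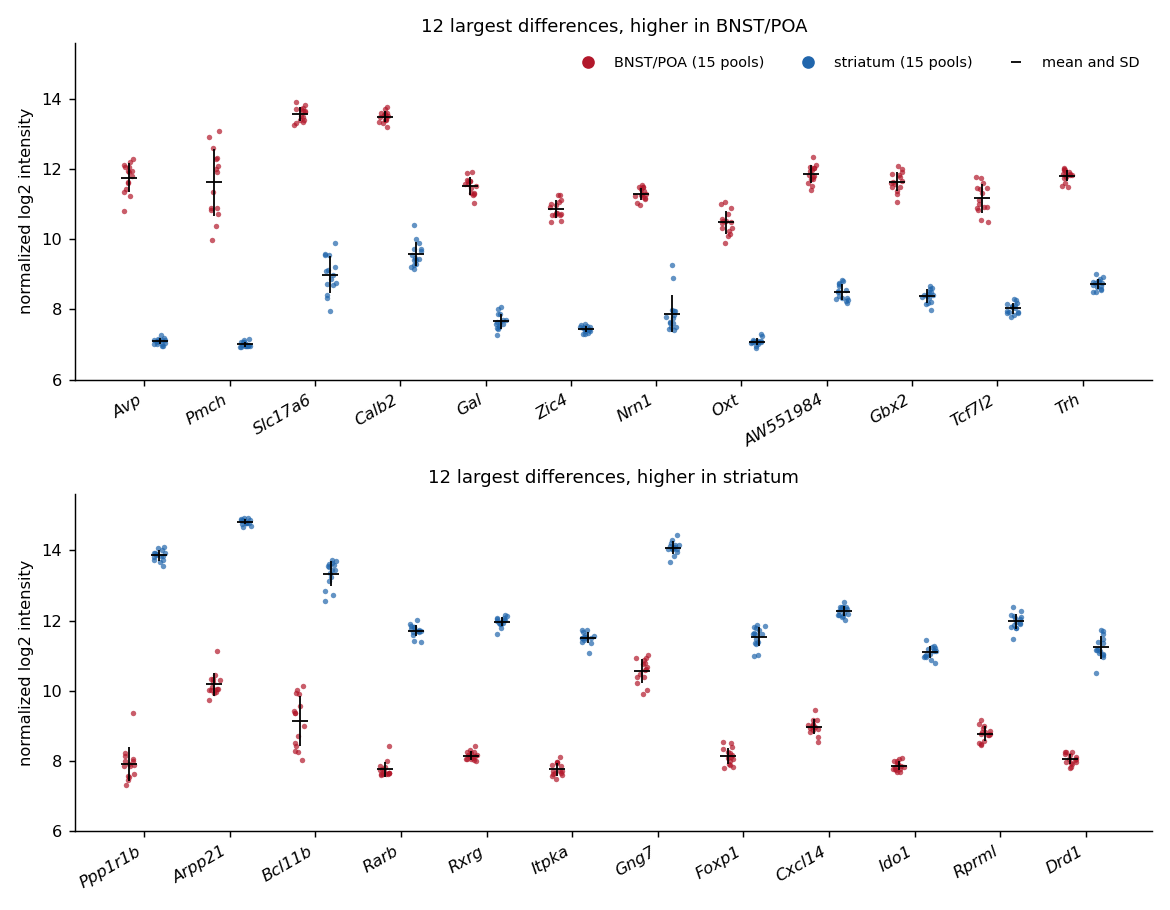
Normalized log2 intensity of the 12 genes with the largest difference in each direction, with 1 point per pool of 3 animals, 15 BNST/POA pools to the left of 15 striatal pools, and bars for the mean and SD. The genes were chosen among those without overlap between the regions, Pmch spreads most among the BNST/POA pools (9.99 to 13.07), and a single BNST/POA pool stands at 9.38 for Ppp1r1b.

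Avp and Oxt are neighbours on mouse chromosome 2, with 3565 bases between their ends in the GRCm38.p6 annotation (Oxt at chr2:130574519-130577054, Avp at chr2:130580620-130582588), and they are read towards each other. Their promoter windows are shown because both genes were high in the same region while the windows differ in the letters they hold. Each window, from RefSeq, runs from 250 bases before an annotated transcript start to 50 after it, and that of Oxt lies within the outer bounds of the gene. Capitals mark GGTCA, letters that several nuclear receptors bind, searched on both strands (so TGACC too). GGTCA occurs in 40.5% of the 32851 promoter windows. The Oxt window (chr2:130575919-130576218, plus strand) has 5 matches and the Avp window (chr2:130582539-130582838, minus strand) has 0.
Oxt: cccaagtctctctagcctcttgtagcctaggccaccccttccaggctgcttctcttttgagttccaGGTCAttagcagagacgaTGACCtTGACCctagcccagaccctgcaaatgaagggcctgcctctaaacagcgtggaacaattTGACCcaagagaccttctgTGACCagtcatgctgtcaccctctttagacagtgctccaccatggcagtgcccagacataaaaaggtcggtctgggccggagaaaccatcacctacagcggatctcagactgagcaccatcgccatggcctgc
Avp: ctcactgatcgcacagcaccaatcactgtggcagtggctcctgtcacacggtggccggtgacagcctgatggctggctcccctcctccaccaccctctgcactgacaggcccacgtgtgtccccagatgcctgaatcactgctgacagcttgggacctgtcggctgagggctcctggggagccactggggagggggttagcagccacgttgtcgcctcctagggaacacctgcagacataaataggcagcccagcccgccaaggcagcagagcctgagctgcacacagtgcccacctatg
The Pmch window (chr10:88090822-88091121, plus strand) is shown for TATAAA, in capitals, the letters of a TATA box. It has 1 match, at position -27 from that start, and TATAAA occurs in 13.6% of all windows. A match is a description of the letters and not a binding site.
Pmch: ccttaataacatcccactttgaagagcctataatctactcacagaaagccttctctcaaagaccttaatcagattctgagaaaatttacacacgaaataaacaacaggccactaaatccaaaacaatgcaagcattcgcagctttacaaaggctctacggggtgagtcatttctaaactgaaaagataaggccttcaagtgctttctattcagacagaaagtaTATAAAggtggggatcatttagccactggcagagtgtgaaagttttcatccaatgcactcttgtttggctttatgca

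Of the 23 neuropeptide genes measured among 30 listed, 18 were higher in the BNST/POA, 12 of them at least 2-fold. Another 3 were higher in the striatum and 2 were not called, where the shares over all genes were 31.7% and 31.9%. The median difference was 1.09 against 0.002 over all genes. A gene could pass the detection filter through the BNST/POA alone, so these values are partly set by the filter. At PN4, 4 of the 23 were detected on 0 striatal arrays, and each was detected in the BNST/POA. Tac1 and Pdyn, peptide precursors listed with the projection neurons, are left out here and were 3.16-fold and 2.27-fold higher in the striatum. After the 5 genes above, the largest differences were of Adcyap1 (2.14, SE 0.08), which encodes the peptide PACAP, of Scg2 (1.88, SE 0.06), a granin of dense-core vesicles, of Ghrh (1.85, SE 0.10), the releasing hormone for growth hormone, and of Cartpt (1.65, SE 0.07), a peptide of feeding circuits. Vip (1.11), Nmu (1.21), Hcrt (1.09), Nts (0.70), Grp (0.66), Vgf (0.50) and Nmb (0.25) were higher in the BNST/POA as well. Nms, a peptide of the suprachiasmatic nucleus, was detected on 0 striatal arrays and was at least 1.54-fold higher in the BNST/POA. Kiss1, whose peptide drives the neurons that release gonadotropin-releasing hormone, was detected on 8 of 15 BNST/POA arrays and on 0 of 15 striatal arrays (log2 difference 0.42, at least 1.05-fold, adjusted p = 1.44e-07). Npy, which marks a class of striatal interneurons, went the other way, at 10.92, 11.63 and 12.07 in the BNST/POA and at 13.12, 13.38 and 13.60 in the striatum (log2 difference -1.78, SE 0.07, adjusted p = 1.28e-18). The other 2 of the 23 that were higher in the striatum, Sst (-0.19, adjusted p = 0.0197) and Prok2 (-0.10, adjusted p = 0.0198), differed little. Without the 11 arrays low on the second component neither passed (adjusted p = 0.0902 for Sst and 0.0634 for Prok2).

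**Figure D2:**
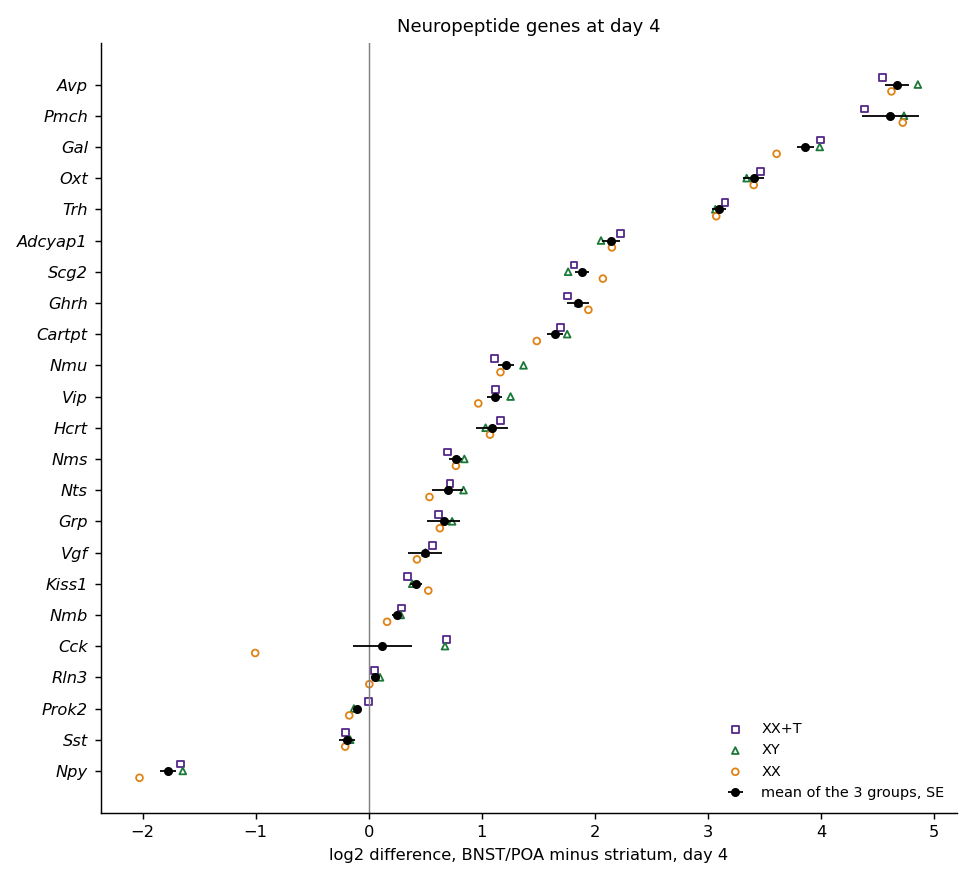
Log2 difference, BNST/POA minus striatum, of the 23 measured genes of the neuropeptide list at PN4. Black symbols give the mean of the 3 groups and its SE, and open symbols the difference within XX+T, XY and XX (5 pools a region each). Tac1 and Pdyn, which were higher in the striatum, are not on this list. The 3 groups lie close together for most genes, and Cck is the exception, at 0.69 in XX+T, 0.67 in XY and -1 in XX.

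The receptors of these and other peptides had a smaller median difference than the peptides. Of 18 measured, 11 were higher in the BNST/POA, 1 of them at least 2-fold, and 4 were higher in the striatum. Over all genes these shares were 31.7% and 31.9%, and the median difference of the 18 was 0.12. Avpr1a, the main vasopressin receptor of the forebrain, read 8.94, 9.31 and 9.57 in the BNST/POA, against 7.71, 7.99 and 9.13 in the striatum (log2 difference 1.19, SE 0.10, adjusted p = 3.13e-11), and the highest striatal value lay within the range of the BNST/POA. Ghr, the growth hormone receptor (0.82, with 0.05 for its dimmer probe), Oprl1, the nociceptin receptor (0.71), and Npy2r, a presynaptic receptor for neuropeptide Y (0.59), were higher in the BNST/POA as well. The receptors that were higher in the striatum, Npy1r (-0.42), Tacr1 (-0.31), Ntsr2 (-0.20) and Crhr1 (-0.16), differed by less than 2-fold.

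Of 12 measured among 30 listed transcription factors of the hypothalamus and preoptic area, 10 were higher in the BNST/POA, 7 of them at least 2-fold. The striatum had 0 higher, where the shares over all genes were 31.7% and 31.9%, and the median difference was 1.12. Here too a gene could pass the detection filter through the BNST/POA alone, so the count is partly set by the filter. Striatal arrays detected Lhx9 and Lhx5 on 0 of 15 at PN4 and 0 of 13 at PN60. The list shares Tcf7l2 and Lhx9 with the thalamic list below. Zic1, a zinc finger factor of the dorsal and medial neural tube, had a log2 difference of 2.85 (SE 0.09). Its neighbour Zic4, which is not on the list and overlaps it by 138 bases on chromosome 9, read 10.50, 10.76 and 11.27 in the BNST/POA, against 7.30, 7.43 and 7.58 in the striatum (log2 difference 3.42, SE 0.07, adjusted p = 8.41e-26). Zic2 and Lhx5 were detected on 0 striatal arrays and were at least 1.91-fold and at least 1.77-fold higher in the BNST/POA. The orphan receptors Nr2f1 (1.23) and Nr2f2 (1.43), the ventral patterning factor Nkx2-2 (0.88), Lhx8 (0.54), a factor of cholinergic neurons, and Irx3 (0.45) were higher too. Tcf7l2, an effector of Wnt signalling that is strongest in the thalamus and habenula, had the largest difference of the list (3.13, SE 0.11, adjusted p = 1.53e-19).

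Markers of thalamic neurons were high in the same BNST/POA pools. Of 7 measured, 5 were at least 2-fold higher in the BNST/POA and 2 were higher in the striatum (Rora at -0.43 and Prkcd at -0.17). The median difference of the 7 was 3.13, and 31.7% and 31.9% of all genes were called higher in the BNST/POA and in the striatum. Slc17a6, the vesicular glutamate transporter of thalamic and hypothalamic neurons, read 13.26, 13.63 and 13.91 in the BNST/POA, against 7.96, 8.98 and 9.90 in the striatum (log2 difference 4.58, SE 0.14, adjusted p = 2.99e-21). Gbx2, a homeodomain factor that marks thalamic neurons, read 11.07, 11.62 and 12.10 in the BNST/POA, against 7.98, 8.40 and 8.68 in the striatum (log2 difference 3.26, SE 0.09, adjusted p = 8.85e-23). Calb2, the calcium buffer calretinin, had a log2 difference of 3.92 (SE 0.09), and Lhx9 was detected on 0 striatal arrays and was at least 2.08-fold higher in the BNST/POA. The summed intensity of the 7 markers was 24623 to 37039 in the BNST/POA pools and 2338 to 3797 in the striatal pools. Thalamus is not in the name of the sample, and the part of these cells in the other differences was not tested.

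Genes of striatal projection neurons went the other way and included the largest difference of all. Of 15 measured among 22 listed, 0 were higher in the BNST/POA and 2 were not called. The other 13 were higher in the striatum, 12 of them at least 2-fold. The median difference of the 15 was -1.81, and the shares over all genes were 31.7% higher in the BNST/POA and 31.9% higher in the striatum. Ppp1r1b encodes DARPP-32, the phosphatase inhibitor through which dopamine acts in these cells. It read 7.33, 7.89 and 9.38 in the BNST/POA, against 13.56, 13.87 and 14.09 in the striatum, which is 61.0-fold lower in the BNST/POA (log2 difference -5.93, SE 0.11, adjusted p = 6.56e-26). The highest BNST/POA value, 9.38, belonged to XX+T pool 4, and the other 14 pools lay at or under 8.23. That pool was also the highest of the BNST/POA for Arpp21 (11.12), Rarb (8.42), Rxrg (8.42), Itpka (8.12) and Ido1 (8.09). For Drd1 it was level with XX pool 2 at the top (8.27). It was not the highest for Bcl11b, Gng7, Foxp1, Cxcl14 or Rprml. The 2 dimmer probes of Ppp1r1b had differences of -2.10 and -1.22, so the size rests on the probe while the direction does not. Arpp21, a second dopamine-regulated phosphoprotein, had a log2 difference of -4.64 (SE 0.08), and its dimmer probe gave -1.66.

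The dopamine receptors of both classes of projection neuron were higher in the striatum. Drd1 read 7.81, 8.05 and 8.27 in the BNST/POA and 10.52, 11.16 and 11.74 in the striatum (log2 difference -3.18, SE 0.09, adjusted p = 1.1e-21). Drd2 read 7.54, 7.82 and 8.07 in the BNST/POA and 9.11, 9.59 and 9.83 in the striatum (log2 difference -1.74, SE 0.07, adjusted p = 9.22e-19). Tac1 (-1.66) and Pdyn (-1.18), the peptide precursors of the DRD1 class, and Gpr6, a receptor of the DRD2 class that was detected on 0 BNST/POA arrays (at least 1.81-fold lower in the BNST/POA), went the same way. The cyclic nucleotide phosphodiesterases Pde10a (-2.39) and Pde1b (-2.20), the G protein regulator Rgs9 (-1.81) and Crym, a thyroid hormone binding protein (-2.59), did so too. Of genes outside the list, Itpka (-3.75), an inositol trisphosphate kinase, Gng7 (-3.51), a G protein subunit of the cAMP pathway, Cxcl14 (-3.30), a chemokine, Ido1 (-3.23), an enzyme of tryptophan breakdown, and Rprml (-3.19) were among the 12 largest. The second probe of Cxcl14 gave -2.15, and that of Gng7, detected on 0 BNST/POA arrays, gave a fitted -0.75.

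Striatal transcription factors were less uniform. Of 13 measured, 3 were higher in the BNST/POA and 9 were higher in the striatum, 5 of these at least 2-fold. Over all genes these shares were 31.7% and 31.9%, and the median difference of the 13 was -0.89. Bcl11b, the zinc finger factor CTIP2 that projection neurons need to mature, read 8.03, 9.37 and 10.15 in the BNST/POA, against 12.56, 13.45 and 13.73 in the striatum (log2 difference -4.21, SE 0.21, adjusted p = 2.89e-16). Foxp1, a forkhead factor of projection neurons, had a log2 difference of -3.40 (SE 0.09), Meis2 of -1.72, Meis1 of -1.56, Foxp2 of -0.97, Sp9, which DRD2 cells need, of -0.89, Ebf1, a factor of DRD1 cells, of -0.76 and Dlx2 of -0.38. Dlx1, a homeodomain factor of GABAergic neurons throughout the ventral forebrain, was higher in the BNST/POA (0.71, SE 0.07, adjusted p = 1.92e-09), as were Isl1 (0.34) and Six3 (0.22).

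Genes of retinoic acid signalling were mostly higher in the striatum. Of 9 measured, which include Rarb and Rxrg of the striatal lists, 1 was higher in the BNST/POA and 2 were not called. The other 6 were higher in the striatum, 3 of them at least 2-fold. The median difference of the 9 was -0.52, and the shares over all genes were 31.7% higher in the BNST/POA and 31.9% higher in the striatum. The 1 gene higher in the BNST/POA was Aldh1a1 (0.11), which was detected on 0 of the 30 arrays. Rarb, the retinoic acid receptor beta, read 7.59, 7.67 and 8.42 in the BNST/POA, against 11.39, 11.70 and 12.03 in the striatum (log2 difference -3.95, SE 0.07, adjusted p = 4.02e-27). A second probe of Rarb gave -3.90, and a dimmer one, detected on 0 BNST/POA arrays, gave -0.63. Rxrg, a partner receptor, read 7.99, 8.13 and 8.42 in the BNST/POA and 11.62, 12 and 12.17 in the striatum, and its adjusted p was the smallest of all probes (log2 difference -3.81, SE 0.05, adjusted p = 2.41e-30). Crabp1, which binds retinoic acid in the cytoplasm, had a log2 difference of -2.80 (SE 0.06), Stra6, a transporter for retinol, of -0.72 and Rxrb of -0.52. The Rarb window (chr14:16575427-16575726, minus strand) is shown because it holds, in capitals, the direct repeat that retinoic acid receptors bind, searched as GTTCA, any 6 bases and GTTCA again. The repeat starts at position -52 from the start. On either strand it occurs in 25 of all 32851 windows (0.0761%), and in 0 of the windows of Rxrg and Crabp1.
Rarb: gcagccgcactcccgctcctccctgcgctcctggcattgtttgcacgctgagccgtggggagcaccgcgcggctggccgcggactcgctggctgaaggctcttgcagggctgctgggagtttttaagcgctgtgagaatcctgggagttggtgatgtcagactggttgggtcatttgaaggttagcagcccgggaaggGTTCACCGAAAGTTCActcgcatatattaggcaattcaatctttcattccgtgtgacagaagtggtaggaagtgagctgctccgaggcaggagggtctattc

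**Figure D3:**
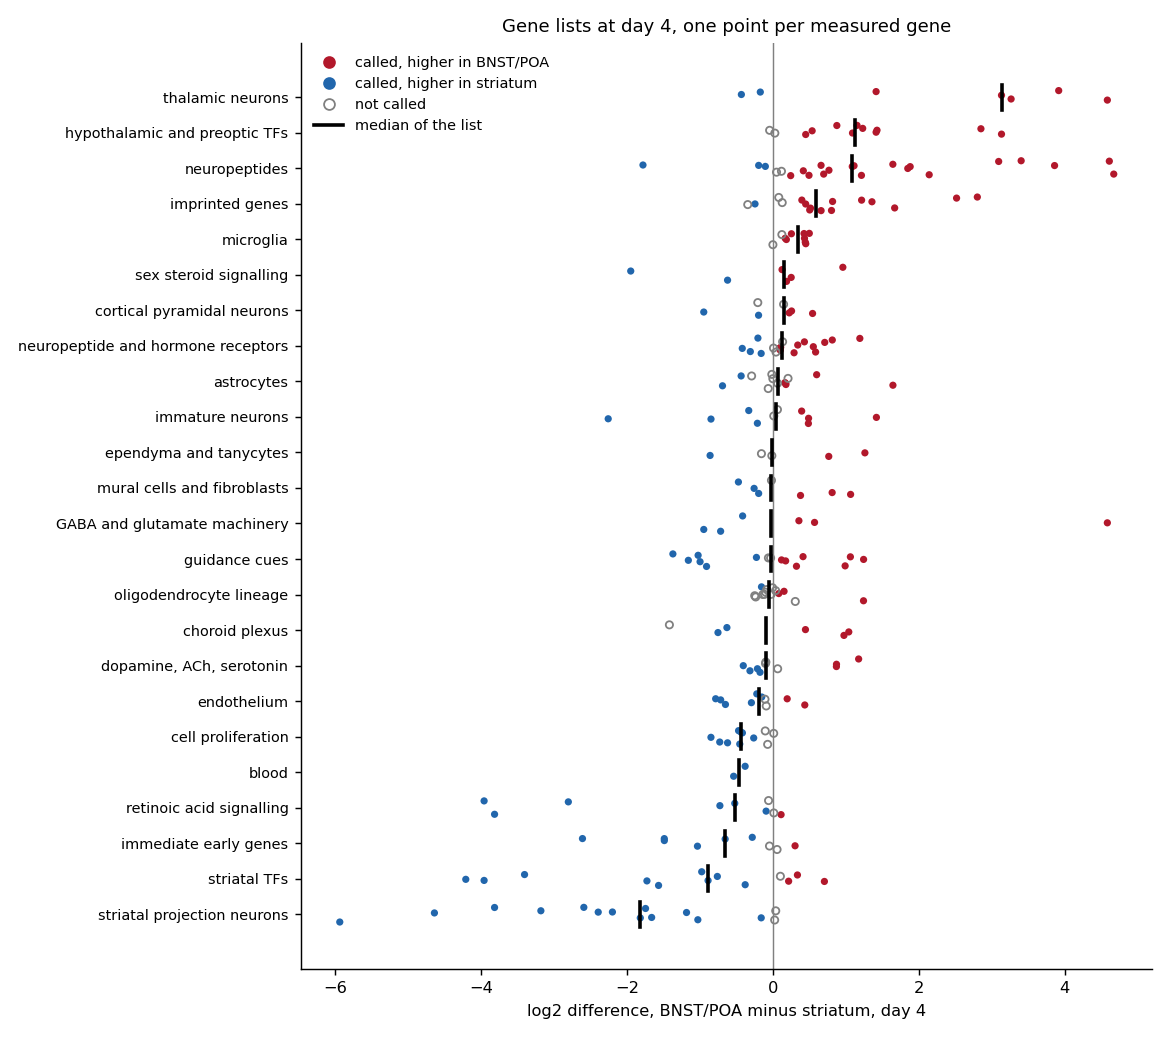
Log2 difference, BNST/POA minus striatum, at PN4 for every measured gene of 24 gene lists, with 1 point per gene, filled where called, and the median of each list as a bar. Thalamic, hypothalamic and neuropeptide lists have medians of 3.13, 1.12 and 1.09, the list of striatal projection neurons has a median of -1.81, and most lists of glial and vascular cells lie near 0.

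Imprinted genes, which are read from 1 parental copy, were mostly higher in the BNST/POA. Of 16 measured, 12 were higher in the BNST/POA, 5 of them at least 2-fold, and 1 was higher in the striatum. Over all genes these shares were 31.7% and 31.9%, and the median difference of the 16 was 0.59. Dlk1, a Notch ligand of developing hypothalamic and other cells, read 9.19, 10.20 and 10.69 in the BNST/POA, against 7.03, 7.37 and 7.68 in the striatum (log2 difference 2.80, SE 0.11, adjusted p = 8.6e-19). Nap1l5 (2.52), a histone chaperone relative, Impact (1.67), a regulator of translation under stress, the cell cycle inhibitor Cdkn1c (1.36) and Usp29 (1.22) followed. Peg3 (0.82), Nnat (0.80), Grb10 (0.66), Gnas (0.52), Ndn (0.51), Igf2 (0.45) and Peg10 (0.40) were higher in the BNST/POA by less than 2-fold, and Mest was higher in the striatum (-0.24). Of these, Usp29 and Peg3 lie in 1 imprinted cluster.

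Sex steroid genes split between the regions. Of 6 measured among 14 listed, 4 were higher in the BNST/POA and 2 were higher in the striatum. Over all genes these shares were 31.7% and 31.9%, and the median difference of the 6 was 0.16. The other listed genes were not measured, so the split covers these 6 alone. Ncoa1, a coactivator of steroid receptors, was lower in the BNST/POA, at 8.12, 8.62 and 9.11, against 9.99, 10.60 and 10.99 in the striatum (log2 difference -1.95, SE 0.11, adjusted p = 4.62e-15). Hsd17b4, a peroxisomal enzyme, was lower in the BNST/POA as well (-0.62). Hsd11b1, which regenerates active glucocorticoid, was higher in the BNST/POA (0.96, SE 0.10, adjusted p = 2.35e-09), and so were the coactivator Cited1 (0.25), the progesterone receptor Pgr (0.19) and the estrogen-responsive Greb1 (0.13). Pgr and Greb1 were near the detection limit, each detected on 11 of 15 BNST/POA arrays and on 1 of 15 striatal arrays.

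Of the transmitter genes, Slc17a6 and Ddc differed by at least 2-fold. Gad1, which makes GABA, was higher in the BNST/POA (0.57) while the vesicular GABA transporter Slc32a1 was higher in the striatum (-0.41), and both regions had high levels of Gad1, with medians of 12.62 in the BNST/POA and 11.98 in the striatum. Ddc, the enzyme that makes dopamine and serotonin from their precursors, read 8.94, 9.19 and 9.37 in the BNST/POA, against 7.90, 7.99 and 8.18 in the striatum (log2 difference 1.18, SE 0.04, adjusted p = 8.7e-21). Gch1, for a cofactor of that pathway (0.87), and Ache, which breaks down acetylcholine (0.87), were higher in the BNST/POA. Chat (-0.17), Slc18a3 (-0.31) and Tph2 (-0.40) were slightly higher in the striatum. Th, the first enzyme of dopamine synthesis, was also higher in the striatum (-0.21). Of 9 immediate early genes, 1 was higher in the BNST/POA (Jun at 0.31) and 6 were higher in the striatum, where the shares over all genes were 31.7% and 31.9%. The log2 differences were -2.61 for Egr1, -1.49 for Egr2, -1.49 for Junb and -1.03 for Arc. Egr2 was detected on 1 of 15 BNST/POA arrays and Junb on 11, so the level of Egr2 there was near background.

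Of 15 measured genes that guide axons, 7 were higher in the BNST/POA and 6 were higher in the striatum, where the shares over all genes were 31.7% and 31.9%. Slit2, a secreted repellent, was higher in the BNST/POA (1.24, SE 0.07, adjusted p = 1.06e-15), and its receptor Robo1 was lower there (-1.16, SE 0.10, adjusted p = 1.6e-10). Nrp1, a semaphorin receptor (1.06), and the ephrin Efna5 (0.99) were higher in the BNST/POA, and Ephb1 (-1.37), Plxna2 (-1.02), Epha7 (-0.996) and Sema3a (-0.91) were higher in the striatum. Of 11 measured proliferation genes, 0 were higher in the BNST/POA and 8 were higher in the striatum, with Top2a at -0.85, Mcm5 at -0.73, Mcm2 at -0.62 and Cdca8 at -0.47, and Igfbpl1, a gene of young neurons, read 7.76, 8.01 and 8.51 in the BNST/POA, against 9.81, 10.30 and 10.96 in the striatum (log2 difference -2.25, SE 0.10, adjusted p = 1.13e-17). Other genes of young neurons differed in both directions, with Elavl4 at 1.42, Stmn2 at 0.49 and Dcx at -0.85.

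Markers of the other cell types that a dissection can hold were closer between the regions. For comparison, 31.7% of all genes were called higher in the BNST/POA and 31.9% higher in the striatum. Microglial genes were higher in the BNST/POA for 8 of 10 measured (median 0.34), with C1qb at 0.50, Aif1 at 0.45, Tyrobp at 0.44 and Fcer1g at 0.43. Of 10 endothelial genes, 2 were higher in the BNST/POA and 6 were higher in the striatum (median -0.18), with Slco1c1 at -0.78. Of 13 astrocyte genes, 5 were higher in the BNST/POA and 2 were higher in the striatum, with Agt, the angiotensin precursor, at 1.65 and the others within 2-fold. One of the 5, S100b, was detected on 0 of the 30 arrays. Of 14 oligodendrocyte genes, 3 were higher in the BNST/POA and 1 in the striatum, and Mag, a myelin protein, read 8.87, 9.17 and 9.38 in the BNST/POA, against 7.69, 7.89 and 8.04 in the striatum (1.24, SE 0.05, adjusted p = 4.43e-19). Both blood genes were slightly higher in the striatum (Hba-a1 at -0.38 and Alas2 at -0.54). The choroid plexus gene Ttr spread over 9.18 to 14.11 in the BNST/POA and 9.54 to 15 in the striatum and was not called (-1.42, SE 0.62, adjusted p = 0.0501), though it passed under 6 alternatives (adjusted p = 0.0112 to 0.0468), while Otx2 (1.04) and Sostdc1 (0.98) were higher in the BNST/POA and Clic6 (-0.75) was higher in the striatum. In all, 3 of 6 choroid plexus genes were higher in the BNST/POA and 2 were higher in the striatum. Of 5 ependymal and tanycyte genes, Rarres2 (1.26) and Tekt1 (0.77) were higher in the BNST/POA, Nes (-0.86) was higher in the striatum and 2 were not called. Mural cell and fibroblast genes were split, with 3 of 7 higher in the BNST/POA and 3 higher in the striatum. Among them Slc6a13 was 2.09-fold higher in the BNST/POA, Dcn had a difference of 0.81 and Acta2 of -0.47.

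The BNST/POA pools differed among themselves in 2 of these gene groups. Pmch spanned an 8.5-fold range over the 15 pools and Hcrt, the orexin precursor of the same part of the hypothalamus, a 2.9-fold range, and the pools high for Pmch were high for Hcrt (Pearson's r = 0.925, permutation p = 1e-05, Spearman's rho = 0.896, permutation p = 6e-05, n = 15). Of 6 such relations tested with 100000 permutations, which can give no p under 1e-05, this one had a Benjamini-Hochberg adjusted p of 6e-05 and gave r = 0.924 without the 2 pools farthest from the median of Pmch. Avp and Oxt also moved together (r = 0.738, permutation p = 0.0016, adjusted p = 0.0032, rho = 0.722, p = 0.003, and r = 0.635 without the 2 pools), and so did Gbx2 and Tcf7l2 (r = 0.821, permutation p = 0.00017, adjusted p = 0.00051, rho = 0.779, p = 0.0008, and r = 0.7 without the 2 pools). The 6 pools low on the second component held Pmch at 11.99 to 13.07, against 9.99 to 12.29 in the other 9, and Gbx2 at 11.07 to 11.61, against 11.58 to 12.10. Within the 6 and within the 9 pools, r was 0.448 and 0.907 for Pmch and Hcrt, 0.585 and 0.809 for Avp and Oxt, and 0.87 and 0.918 for Gbx2 and Tcf7l2. Pmch and Gbx2 ran opposite over all 15 pools (r = -0.556, permutation p = 0.032, adjusted p = 0.048, rho = -0.604, p = 0.02, and r = -0.714 without the 2 pools), with r = -0.424 within the 6 pools and 0.348 within the 9, so the sign did not hold within both sides and the relation cannot be told apart from the second component. The relations of Avp with Pmch (r = -0.22, permutation p = 0.43, adjusted p = 0.52, rho = -0.318, p = 0.25) and with Gbx2 (r = -0.021, permutation p = 0.94, adjusted p = 0.94, rho = 0.048, p = 0.87) did not pass.

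**Figure D4:**
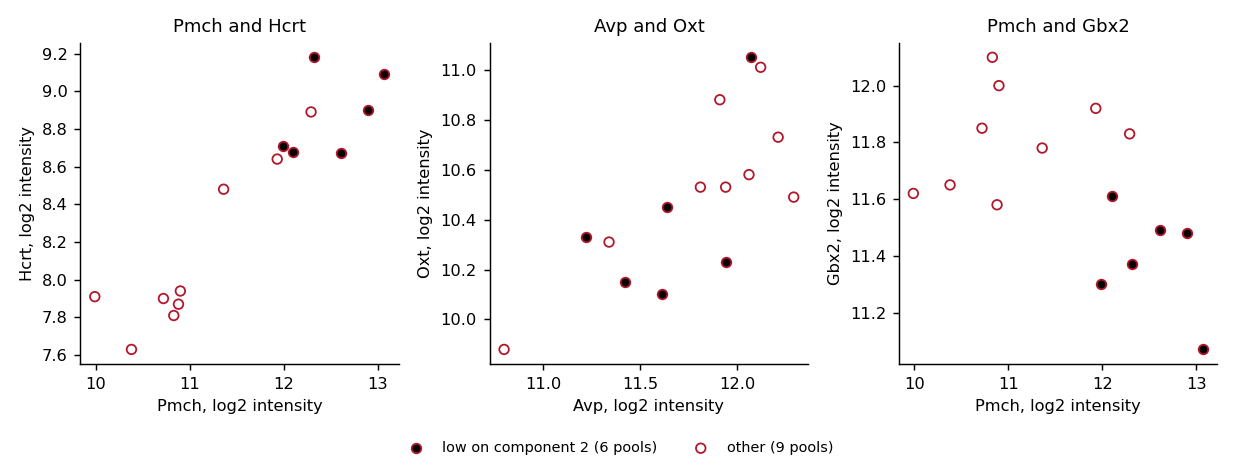
Normalized log2 intensity of 3 pairs of genes in the 15 BNST/POA pools of PN4, with the 6 pools low on the second principal component filled. Pools high for Pmch are high for Hcrt (r = 0.925), Avp and Oxt have r = 0.738, and the 6 filled pools have high Pmch (11.99 to 13.07) and low Gbx2 (11.07 to 11.61).

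The region difference was then compared between the groups, to ask whether testosterone at birth or sex changed it at PN4. The count of probes called was 5423 in XX+T, 5372 in XY and 5884 in XX, with 557, 562 and 623 at least 2-fold. The test of the difference itself called 0 of 13731 probes (0%) between XX+T and XX and 0 probes (0%) between XY and XX in limma. At an unadjusted p under 0.05 there were 338 and 693. Among the 24 leading genes the difference in XX+T minus that in XX was -0.34 (Pmch) to 0.59 (Nrn1, a neuritin that promotes neurite growth), and the difference in XY minus that in XX was -0.38 (AW551984) to 0.72 (Nrn1). Over all probes the median 95% interval reached 0.27 log2 units to either side of its estimate, so changes of the region difference under that size could be missed for a typical probe. That interval is not adjusted for the 13731 probes as the calls were, so larger changes could be missed too. The 0.72 of Nrn1 was not called. In the striatum Nrn1 read 9.26 and 8.91 in XX pools 1 and 5, and 7.41 to 7.99 in all other pools.

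Cck, the precursor of cholecystokinin, was looked at after its values were seen, since its difference had another sign in XX+T and XY than in XX. It read 8.43 to 9.37 in the XX+T BNST/POA and 7.74 to 9.30 in the XX+T striatum. In XY it read 8.32 to 9.96 in the BNST/POA and 7.84 to 8.90 in the striatum, and in XX it read 8.15 to 9.55 in the BNST/POA and 7.97 to 11.15 in the striatum. Neither test passed (adjusted p = 1 for treatment and 0.936 for sex, unadjusted p = 0.0131 and 0.0137). The striatal XX pools 1, 2 and 5, with 11.15, 9.76 and 10.99 for Cck, were also the 3 highest striatal pools for Slc17a7, the glutamate transporter of cortical neurons, at 9.69, 8.95 and 9.16. Of 7 measured genes of cortical pyramidal neurons, 3 were higher in the BNST/POA and 2 in the striatum, where the shares over all genes were 31.7% and 31.9%. Slc17a7 (-0.95) was among the 2 and was detected on 1 of 15 BNST/POA arrays. The summed intensity of the 7 was 1395 to 1813 in the BNST/POA and 1271 to 2448 in the striatum, and its part in the Cck values was not tested.

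To place the differences of PN4 in development, they were compared with those of PN60, where 14 BNST/POA and 13 striatal arrays hold the same 3 groups. Those mice had been gonadectomized and carried testosterone implants, so age and hormone state cannot be told apart. In 1 fit of all 57 arrays the region difference at PN4 minus that at PN60 was more positive for 2240 of 9560 genes (23.4%) and more negative for 2262 (23.7%). Of the 238 genes at least 2-fold higher in the BNST/POA at PN4, 202 were also called higher there at PN60 and 8 were called lower. Of the 220 at least 2-fold higher in the striatum, 178 were called the same way at PN60 and 13 the opposite way. Among all 13731 probes, 4383 were called higher in the BNST/POA at PN60 and 3809 higher in the striatum. The differences of Gal (3.86 at PN4 and 3.75 at PN60), Trh (3.09 and 2.93) and Itpka (-3.75 and -3.83) were close at the 2 ages and their change was not called (adjusted p = 0.57, 0.378 and 0.507).

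Oxt and several other peptides differed more between the regions at PN60. At PN60 Oxt read 13.13, 13.58 and 14.11 in the BNST/POA and 7.14, 7.69 and 8.99 in the striatum (difference at PN4 minus PN60 -2.36, SE 0.17, adjusted p = 4.89e-16). Kiss1 differed by 0.42 at PN4 and by 1.69 at PN60 (-1.27, SE 0.15, adjusted p = 5.71e-10), and Nmu (-1.30), Nms (-1.13), Prok2 (-1.11), Nts (-0.90), Cartpt (-0.88) and Vip (-0.66) changed the same way. Several striatal levels behind these fitted values were at background, so their sizes are not exact. Striatal arrays detected Kiss1 on 0 of 15 at PN4 and 2 of 13 at PN60, Nmu on 1 and 0, Nms on 0 and 8, Prok2 on 15 and 0, Vip on 3 and 13, and Oxt on 1 and 10. The difference of Avp was larger at PN4, by 1.24, and that of Pmch by 2.62 (SE 0.54, adjusted p = 7.25e-05). For both of these the striatal level moved with the result. Avp read 6.95 to 7.26 in the PN4 striatum and 7.18 to 11 in the PN60 striatum, Pmch read 6.92 to 7.16 at PN4 and 7.78 to 13.50 at PN60, and whether that dissection held other tissue was not tested.

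The largest changes with age included genes whose region difference turned round. Pvalb, a calcium buffer of fast-spiking neurons, read 9.10, 10.38 and 11.19 in the BNST/POA at PN4, against 7.26, 7.62 and 8.47 in the striatum, and its log2 difference was 2.58 at PN4 and -1.27 at PN60 (PN4 minus PN60 3.85, SE 0.28, adjusted p = 2.61e-16). Nectin3, a cell adhesion molecule, had a log2 difference of -1.15 at PN4 and 1.03 at PN60 (PN4 minus PN60 -2.18, SE 0.09, adjusted p = 1.22e-24), and its dimmer probes gave -0.69 and -0.06 at PN4. These were the 2 genes with at least a 2-fold difference in opposite directions at the 2 ages. Scn4b, a sodium channel subunit of projection neurons, had a log2 difference of -1.47 at PN4 and -5.13 at PN60. Tesc, a calcium-binding protein, had -0.55 at PN4 and -3.02 at PN60, and Rgs9 -1.81 at PN4 and -3.73 at PN60. Sytl4, which docks secretory vesicles, differed by 0.39 at PN4, when 0 of 15 striatal arrays detected it, and by 3.63 at PN60, when 1 of 13 did. Cxcl14 (-3.30 at PN4 and -0.18 at PN60), Igfbpl1 (-2.25 and -0.03), Lypd1 (-1.75 and 0.29) and Slc17a6 (4.58 and 2.18) differed more between the regions at PN4.

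**Figure D5:**
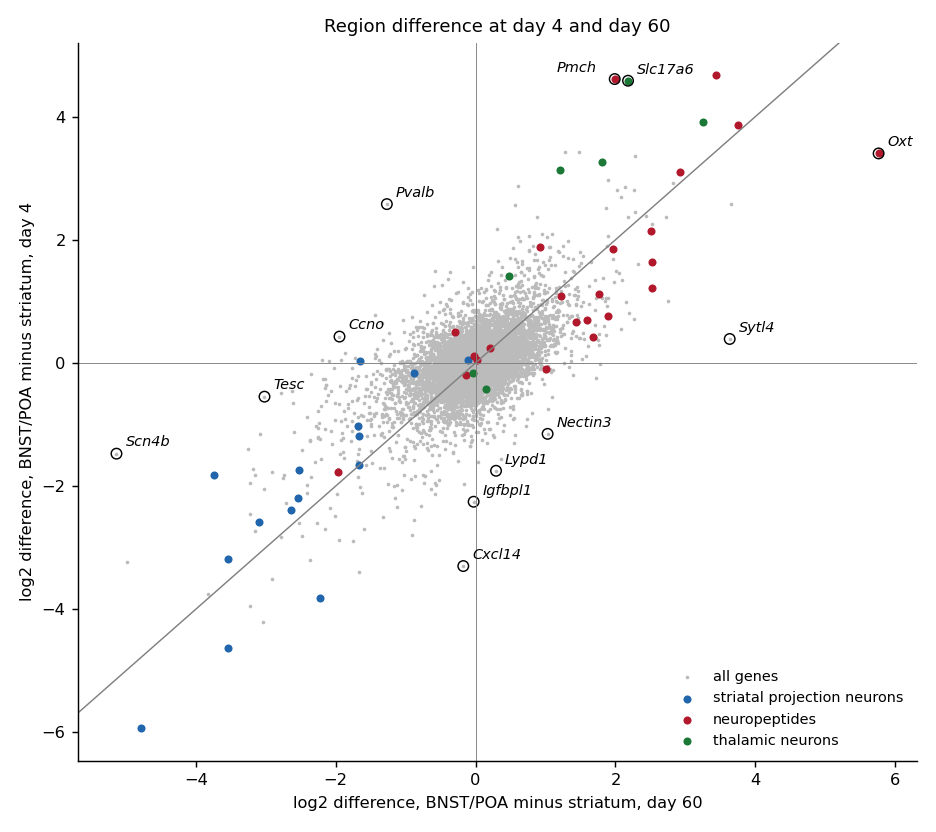
Log2 difference, BNST/POA minus striatum, of 9560 genes at PN4 (vertical axis) against PN60 (horizontal axis), both from the fit of all 57 arrays, with the line of equal difference, the neuropeptide, thalamic and projection neuron lists in colour and the 12 genes of the largest change with age named. Oxt (3.40 at PN4, 5.76 at PN60) lies right of the line, and Pvalb (2.58 at PN4, -1.27 at PN60) lies in the quadrant of opposite signs.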

How the data were processed

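RNA pooled from 3 mice was measured on Illumina MouseRef-8 arrays. The authors deposited an intensity per probe, averaged over its beads and not normalized, with a detection p-value against negative control beads. The authors also deposited log2 values, which the normalization below reproduced to within 5e-09. Striatal arrays were matched to labels by codes spelled like those given for the BNST/POA.

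Log2 intensities of the 57 arrays were quantile-normalized (limma 3.58.1, R 4.3.3). The filter kept 13731 probes detected (p under 0.05) on 20 or more arrays. Of these, 12944 have 1 gene in the annotation, 0 have several and 787 have none. Another 114 columns went unused. limma's linear models were fitted to the 6 PN4 groups (12 groups for age) without blocks, with Benjamini-Hochberg adjustment. Each gene is given by its brightest probe at PN4. The number of arrays limits the precision.

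Named genes are the 12 largest called differences in each direction without overlap, the 4 largest of each list, called members of the striatal, neuropeptide, transcription factor and sex steroid lists, and the 6 largest changes with age in each direction. Further list members are given by value only. The comparison and the 24 lists were chosen with earlier results of these data known. Alternatives changed the normalization, background, filter, weights, blocks and arrays.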

Additional observations from a re-analysis of the deposited data

Results flagged for a closer look

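The region difference differed between PN4 and PN60 for 6497 probes. The genes with the largest such differences, PN4 minus PN60, were Pvalb (3.85), Scn4b (3.66), Pmch (2.62), Tesc (2.47), Slc17a6 (2.40) and Ccno (2.37) on the positive side, and Sytl4 (-3.24), Cxcl14 (-3.12), Oxt (-2.36), Igfbpl1 (-2.23), Nectin3 (-2.18) and Lypd1 (-2.04) on the negative side.

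Single pools stood apart from the other 4 of their group for 8 leading genes in 9 of the 150 groups of values examined, where chance gives about 1 in 20. In the BNST/POA these were Calb2 in XY pool 5 (13.33, others 13.52 to 13.57), Nrn1 in XY pool 3 (11.14, others 11.44 to 11.55) and Rprml in XX pool 1 (8.93, others 8.47 to 8.57). In the striatum they were Arpp21 in XX+T pool 1 (14.69, others 14.83 to 14.88) and in XY pool 2 (14.86, others 14.77 to 14.79), Bcl11b in XX pool 4 (12.74, others 13.37 to 13.58), Rxrg in XX pool 1 (11.62, others 11.93 to 12.02), Itpka in XX pool 5 (11.09, others 11.46 to 11.60) and Drd1 in XY pool 1 (11.63, others 11.04 to 11.18). The cause was not tested for any of them.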

How the results depend on the processing

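No named gene that was called in the main fit changed direction under the alternatives run. Where the filter used the PN4 arrays alone, 3 named genes could not be measured. Background correction by normexp called 1190 probes at 2-fold in place of 567, all 567 among them, and gave log2 differences of 6.73 for Avp and -6.94 for Ppp1r1b. The other settings gave 540 to 614. Without 1 pool at a time, counts ran from 8335 to 8836 for the region difference, 546 to 603 at 2-fold, 4561 to 5634 in XX+T, 4658 to 5592 in XY, 4943 to 6623 in XX, 0 to 0 for treatment and for sex, and 6229 to 7033 for age. Equal pool numbers were not treated as pairs, because the sources do not say whether they share mice. Of 15, 10 correlated above 0.1 (r from -0.457 to 0.804). Their own number was the best match for 7 of 15, and these values do not decide whether they share mice. With the replicate block 568 probes were called at 2-fold, and Ttr (adjusted p = 0.0127) and Pdgfra (0.0322) passed. Sst did not pass under median centring (adjusted p = 0.347), nor Prok2 with all 57 arrays in the fit (0.132). Leaving out the 11 arrays low on the second component, chosen after seeing the data, called 540 probes at 2-fold, 504 of them shared, with 18 neuropeptide genes higher in the BNST/POA and 1 lower, 8 receptors higher, and 1 thalamic and 1 choroid plexus gene lower. Small list counts also moved elsewhere. With the PN4 filter, 2 sex steroid genes and 0 retinoic acid genes were higher in the BNST/POA, and array weights called 4 oligodendrocyte and 2 imprinted genes lower.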
